A study of Mus musculus with 22 samples.

Results

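Obstructed mouse kidneys collected 5 days after ligation of the ureter were compared with obstructed kidneys collected 2 days after it. The comparison took the arrays whose titles mark an obstructed kidney at those days, 3 at day 5 and 3 at day 2, which are 6 of the 22 arrays of the series. All mice were C57BL/6, and the labels give no age or sex. In the obstructed groups the left ureter had been tied. In the sham groups, with 2 arrays at each of the same days, it had been dissected but not tied. The name of the sham day 2 array S39R ends in R. Those of the other sham arrays of these days and of the 6 obstructed arrays end in L. The letter may mark the side of the kidney, which was not tested. Kidney RNA was labelled with Cy5 and mouse universal reference RNA with Cy3 on the same 2-colour array, so every value is a log2 ratio of kidney over reference RNA after subtraction of the array median. The log base of the deposited ratios was inferred from the values. Differences are day 5 minus day 2 on that log2 scale, ± the standard error of a limma fit, and a gene is said to have risen or fallen where its p, adjusted by the Benjamini-Hochberg method over all 17039 genes tested, was under 0.05. Values per array are given in a fixed order, S18L, S30L and S04L at day 2, then S31L, S19L and S21L at day 5. The labels number the samples but do not say that each is a separate animal, so p-values measure the spread between these samples.

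Ligation of a ureter raises the pressure in the tubules of that kidney and is a standard model of tubular injury followed by fibrosis. Stretched and injured tubule cells switch on stress genes and release chemokines, monocytes enter the interstitium and become macrophages, and fibroblasts turn into matrix-producing myofibroblasts. Proximal tubule cells, which depend on mitochondrial fatty acid oxidation, lose transport and metabolic functions. The question the comparison addresses is which of these programmes moved between an early and a later day within the obstructed kidney itself. In RNA from whole tissue, fewer cells of a type and less RNA per cell cannot be told apart.

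In all, 154 of 17039 genes passed the test, 0.904% of those tested. Of these, 105 rose (0.616%) and 49 fell (0.288%), with 61 rising and 8 falling by at least 2-fold. The largest rises included Agtr2, a receptor of angiotensin II, the macrophage genes Ms4a7, Spic and Adgre1, the signalling adaptor Traf1 and the matrix protease Mmp2. The largest falls included the transporter Slc22a29, the oxidase Nox4 and the phosphatase Alpl. Across all genes the median difference was -0.01, and 2817 genes (16.5%) had an unadjusted p under 0.05. Among the 16808 genes with a value on all 6 arrays, the 3 day 5 arrays lay entirely above the 3 day 2 arrays for 2009 (12%) and entirely below them for 2279 (13.6%). All 154 genes that passed had groups that did not overlap.

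The number of calls depended on the arrays and on the estimate of the spread. The fit drew its spread from all 8 groups of the series, and with the 6 arrays alone limma called 0 genes, with 2942 at an unadjusted p under 0.05. Leaving out 1 array at a time left 36 calls without S18L, 6 without S30L, 9 without S04L, 26 without S31L, 29 without S19L and 126 without S21L, and of the 154 only Mmp2, Nlrp10, Traf1 and Zbtb7c passed in all 6 of these fits. Scaling moved the split of the calls, from 68.2% higher to 56.9% higher of 343 calls with quantile normalization and 53.8% higher of 171 with no subtraction of array medians. The array images of S19L and S21L are filed in 1 folder and those of S31L and all 3 day 2 arrays in another. With the folder as a block 15 genes passed, 10 higher and 5 lower, and these were Col6a4, Itpr3, Krt20, Mmp2, Nlrp10, Ptpre, Slc37a1, Traf1, Trem2 and Zbtb7c among the higher and Dclk3, Fut8, L3hypdh, Rdh19 and Zc2hc1c among the lower.

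Single arrays also stood apart. On S21L the log2 ratio of Xist, the RNA that silences an X chromosome in female cells, was 1.84, against -6.34 to -5.66 on the other 5 arrays, and the Y-linked gene Eif2s3y was at -7.22, so S21L reads as female and the other 5 as male. The same array was high in skeletal muscle genes, with Acta1 at 2.99 and Ckm at 4.40, against at most -0.15 and -0.25 on the others. Its median correlation with the other 5 arrays was 0.923, below the 0.948 to 0.957 of the rest. The day 2 array S04L was low in adipose genes, with Adipoq at -0.56 against 5.38 to 6.20 on the others. The 11 adipose genes had a median difference of 0.97 and the 18 skeletal muscle and pancreas genes one of 1.17, with 0 members of either passing. With S31L as the sole day 5 array these medians were -0.10 and -0.15. Without S04L the adipose median was 0.00, and without S21L the muscle and pancreas median was 0.03. The part of these tissues in other results was not tested beyond the fits without the arrays. Kap, an abundant proximal tubule transcript, read 8.45 to 9.40 on all 6 arrays, and Umod of the thick ascending limb read 5.07 to 5.84, so that markers of kidney tissue were high on every array.

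Macrophage genes were among the largest rises. Of 43 monocyte and macrophage genes measured, 3 rose, against 0.616% over all genes, 0 fell and the median difference was 0.75. Of the 43, 15 had all day 5 arrays above all day 2 arrays (34.9%, against 12% over all genes). Ms4a7, a membrane-spanning protein of macrophages, read -1.03, -1.59 and -1.82 at day 2 and 1.20, 1.90 and 0.17 at day 5. The difference was 2.57 ± 0.46, or 5.93-fold (adjusted p = 0.0223), with S21L the lowest of the day 5 arrays. Trem2, a lipid-sensing receptor of tissue macrophages, read -1.61, -1.73 and -2.26 and then -0.52, -0.30 and -0.92. It was 2.44-fold higher at day 5 (1.29 ± 0.19, adjusted p = 0.0126) and stayed past the threshold with the image folder as a block. Adgre1, which encodes the macrophage surface protein F4/80, read -1.46, -1.98 and -2.12 and then -0.22, 0.47 and -0.73, a rise of 1.69 ± 0.36 (adjusted p = 0.0416). The day 5 arrays of all 3 genes lay above every day 2 array, as in every gene that rose.

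Other large rises outside that list are known from myeloid cells. Spic, a transcription factor of iron-recycling macrophages, read -3.06, -4.03 and -3.20 at day 2 and -0.67, -0.99 and -1.41 at day 5, a 5.31-fold rise (2.41 ± 0.47, adjusted p = 0.0287). Clec10a, a galactose-binding lectin of macrophages and dendritic cells, rose from 4.64, 3.51 and 3.51 to 5.52, 5.83 and 5.82 (1.83 ± 0.40, adjusted p = 0.0456). The day 5 arrays of Clec10a lay close together, and S18L was the highest of its day 2 arrays. Mrc1 and Ctss, by contrast, are members of the monocyte and macrophage list, and neither passed. Mrc1, the mannose receptor, read 6.36, 5.61 and 5.10 and then 6.96, 7.30 and 5.96, so that the groups overlapped (1.05 ± 0.46, adjusted p = 0.269). Ctss, the lysosomal protease cathepsin S, read 1.70 ± 0.39 higher but missed the threshold (adjusted p = 0.0547).

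Among genes of antigen presentation and of lymphoid cells, at most 2 of a list rose, against 0.616% over all genes. Of 18 genes of MHC class II and dendritic cells 2 rose, and their median difference was 0.39. In 7 of the 18 (38.9%, against 12% over all genes) the day 5 arrays lay above all day 2 arrays. In 1 (5.56%, against 13.6%) they lay below. Cd83, a surface marker of activated dendritic cells, read 4.10, 4.67 and 4.24 and then 5.82, 5.83 and 5.75 (1.46 ± 0.28, adjusted p = 0.0292). Cd74, the invariant chain that loads class II molecules, read 0.58, 0.68 and 0.82 and then 2.02, 2.36 and 1.60 (1.30 ± 0.29, adjusted p = 0.0491). The list's median was 0.10 with the image folder as a block, 0.15 without S19L and 0.23 without S30L. Cd22, an inhibitory co-receptor of B cells, was the 1 of 15 B and plasma cell genes that rose, from -0.04, 0.18 and 0.41 to 2.60, 1.55 and 2.52 (2.04 ± 0.35, adjusted p = 0.0194). Fcrl1, another B cell surface receptor, rose by 1.63 ± 0.28 (adjusted p = 0.0174), with day 2 values from -2.48 to -2.18 and day 5 values from -1.14 to -0.42. None of 28 T and NK cell genes passed, with a median of 0.36, which was 0.11 without S30L and 0.54 without S31L. Il7r, the interleukin 7 receptor and the member of lowest p, was 1.43 ± 0.40 higher (adjusted p = 0.102). Of 36 interferon-stimulated genes 1 rose, Irf8, a transcription factor of the myeloid lineage (0.80 ± 0.17, adjusted p = 0.0397), and the list's median was 0.27, or 0.47 without S21L, with a sham value of 0.28. None of 16 neutrophil genes passed, and the median was 0.09.

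**Figure D1:**
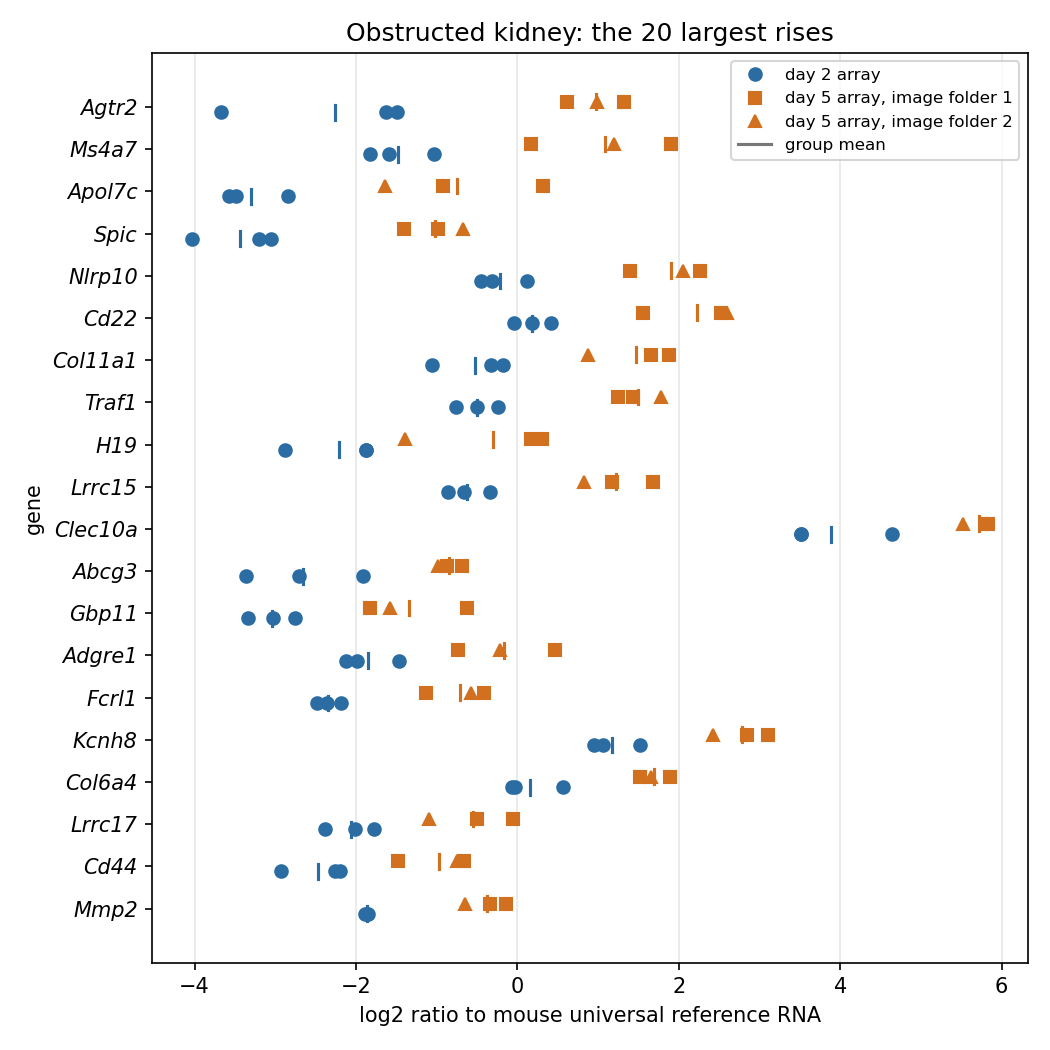
Log2 ratio to reference RNA (x axis) of the 20 largest rises (y axis) on each of the 3 day 2 arrays (circles) and 3 day 5 arrays (squares for image folder 1, triangle for folder 2, S31L), with bars at the group means. The day 5 symbols lie to the right of the day 2 symbols in every gene shown, since the naming rule required it, and Agtr2 has the largest mean difference of those shown, 3.24.

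Several risen genes act in signalling by tumour necrosis factor receptors and the transcription factor NF-kB, which inhibitors of the IkB family hold in the cytoplasm. They were not a list here, and apart from Traf1, which the naming rule picked as a large rise, and Tnfrsf12a they were picked out after their values were seen, so no count is set on them. Traf1, an adaptor of the tumour necrosis factor receptors, passed with an adjusted p of 0.00169. It read -0.50, -0.24 and -0.76 at day 2 and 1.78, 1.44 and 1.25 at day 5, a 3.97-fold rise (1.99 ± 0.22). Tnfaip3, the ubiquitin-editing enzyme A20 that dampens NF-kB signalling, read -1.34, -0.82 and -1.04 and then 0.14, 0.10 and 0.55 (1.33 ± 0.22, adjusted p = 0.0172). Relb, an NF-kB subunit, read -0.18, -0.37 and -0.14 and then 0.61, 0.59 and 0.92 (0.94 ± 0.17, adjusted p = 0.0226). Nfkbie, which encodes the inhibitor IkB-epsilon, rose by 0.75 ± 0.17 (adjusted p = 0.0491), and Ebi3, a subunit of heterodimeric interleukins, by 1.10 ± 0.24 (adjusted p = 0.0446). Of these 5 genes only Traf1 passed with the image folder as a block. Nlrp10, a member of the NLR family that lacks the leucine-rich repeats, read -0.32, -0.45 and 0.12 and then 2.06, 1.40 and 2.26 (2.12 ± 0.25, adjusted p = 0.00242), and it passed with the block too.

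The promoters of 3 of these genes are printed because they hold matches to the NF-kB consensus and belong to genes that are themselves components or outputs of the pathway. They were thus picked for their matches. No match was found for Traf1, Relb, Nlrp10 or Tnfrsf12a. Promoter sequences were missing for some risen genes, and whether these were among them is not given here. The sequences are from RefSeq, build GRCm38.p6, 5′ to 3′ on the gene's strand, from 250 bases before to 50 bases after the start site, with the NF-kB consensus matches in capitals. Where a gene had several start sites, the window with the most matches is shown. Nfkbie lies at chr17:45555450-45555749 on the plus strand, with 1 match that begins 106 bases before the start site. Tnfaip3 lies at chr10:19015361-19015660 on the minus strand, with matches that begin 125 and 12 bases before it. Ebi3 lies at chr17:55952373-55952672 on the plus strand, with matches that begin 44 bases before and 14 bases after it.
Nfkbie: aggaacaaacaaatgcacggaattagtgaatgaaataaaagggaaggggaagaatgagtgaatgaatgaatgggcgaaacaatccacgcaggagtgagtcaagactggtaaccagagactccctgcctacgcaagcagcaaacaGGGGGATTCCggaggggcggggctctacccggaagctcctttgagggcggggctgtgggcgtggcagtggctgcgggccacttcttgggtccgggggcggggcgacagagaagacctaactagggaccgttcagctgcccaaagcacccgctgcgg
Tnfaip3: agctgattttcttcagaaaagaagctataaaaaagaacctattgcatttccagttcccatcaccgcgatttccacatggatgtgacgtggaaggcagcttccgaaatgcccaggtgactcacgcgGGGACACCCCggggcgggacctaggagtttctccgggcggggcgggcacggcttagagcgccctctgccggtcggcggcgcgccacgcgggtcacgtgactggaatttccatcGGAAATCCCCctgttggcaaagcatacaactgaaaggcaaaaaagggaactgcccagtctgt
Ebi3: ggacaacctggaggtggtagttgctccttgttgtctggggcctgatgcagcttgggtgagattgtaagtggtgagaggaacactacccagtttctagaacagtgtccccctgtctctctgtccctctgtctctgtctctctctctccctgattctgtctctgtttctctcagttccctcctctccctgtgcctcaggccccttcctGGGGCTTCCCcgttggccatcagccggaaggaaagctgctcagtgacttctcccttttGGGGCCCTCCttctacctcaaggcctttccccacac

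The consensus, searched on both strands, was present in 14 of 98 promoters of risen genes (14.3%), in 4 of 51 promoters of fallen genes (7.84%) and in 1702 of 17090 promoters of all genes tested (9.96%). The AP-1 site TGANTCA, the element bound by Fos and Jun proteins, was present in 10.2%, 1.96% and 6.33% of the same promoters. The element TCAAGGTCA of the oestrogen-related receptors, regulators of mitochondrial genes, was found in 0 promoters of risen and 0 of fallen genes, and in 0.252% of all. RefSeq promoters were found for 79 of the risen genes and 38 of the fallen. A match describes the letters of the window and was not tested as a binding site.

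Immediate early genes, which stretch and injury switch on within minutes, and genes of tubular injury read mostly higher at day 5, although few passed one by one. Of 32 immediate early and stress transcription genes 3 rose, against 0.616% over all genes. All 32 had a difference above 0, with a median of 0.68. In 23 of the 32 (71.9%, against 12% over all genes) the day 5 arrays lay above all day 2 arrays. Klf6, a zinc finger transcription factor of injured epithelium, read 0.58, 0.24 and 0.48 at day 2 and 1.87, 1.48 and 1.87 at day 5, a 2.47-fold rise (1.31 ± 0.20, adjusted p = 0.0133). Klf4, a related factor, read -0.59, -0.90 and -0.76 and then 0.68, 0.15 and 0.67 (1.24 ± 0.20, adjusted p = 0.0157). In both genes S19L was the lowest of the day 5 arrays. Gadd45b, a stress sensor upstream of the stress-activated kinases, rose by 1.08 ± 0.22 (adjusted p = 0.0359). Fos and Egr1, the prototypes of the class, were 1.31 ± 0.43 and 1.37 ± 0.37 higher and did not pass (adjusted p = 0.145 and 0.0909). The day 5 arrays of Egr1 read -1.14, -2.16 and -1.22, against -2.96 to -2.79 at day 2. Jun and Atf3 were 0.69 ± 0.18 and 1.10 ± 0.32 higher and did not pass either (adjusted p = 0.0853 and 0.109).

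Of 28 tubular injury genes 3 rose, against 0.616% over all genes, with a median of 0.38. Cd44, the hyaluronan receptor of injured tubule cells and leukocytes, read -2.20, -2.27 and -2.93 and then -0.75, -0.67 and -1.48 (1.50 ± 0.28, adjusted p = 0.0268). Its 12 probes gave differences from 0.52 to 1.70. Tnfrsf12a, the receptor of the cytokine TWEAK, read -1.27, -1.68 and -1.55 and then -0.27, -1.02 and -0.08 (1.04 ± 0.22, adjusted p = 0.0424), with S19L closest to the day 2 arrays. Anxa2, a membrane-binding annexin, rose by 0.69 ± 0.15 (adjusted p = 0.0404). The urinary injury markers Havcr1 (KIM-1) and Lcn2 (NGAL) were already above the sham arrays at day 2, and their day 2 and day 5 groups overlapped. Havcr1 read 4.49, 4.58 and 3.50 at day 2 and 4.91, 4.89 and 3.13 at day 5 (0.12 ± 0.46, adjusted p = 0.932), and its sign turned without S31L, S04L or S19L. Lcn2 read 3.32, 2.98 and 3.71 and then 3.94, 3.90 and 2.78 (0.20 ± 0.43, adjusted p = 0.857), against sham values of -1.77 to -0.47. Krt20, a keratin of injured proximal tubules and of urothelium, read 1.54, 1.34 and 0.90 and then 4.77, 2.88 and 3.94. Its difference of 2.60 ± 0.68 missed the threshold (adjusted p = 0.0821) and passed with the image folder as a block (adjusted p = 0.0453).

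Of 21 genes of p53 and cell death 2 rose, against 0.616% over all genes, with a median of 0.34. Bbc3, which encodes the pro-apoptotic protein PUMA, read -1.27, -1.14 and -0.95 and then -0.17, -0.45 and -0.17 (0.85 ± 0.12, adjusted p = 0.0124). Gsdmd, the pore-forming executor of pyroptosis, rose 1.70-fold (0.77 ± 0.13, adjusted p = 0.0157) with day 2 arrays at -1.88, -2.06 and -2.02 and the lowest day 5 array, S31L, at -1.40. The groups of both genes were separated on all 6 arrays, as in every gene that passed. None of 22 heat shock and unfolded protein response genes passed, and their median was 0.01, with Hspb1, a small heat shock protein, at 1.01 ± 0.24 (adjusted p = 0.0644).

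Chemokines read higher at day 5 without passing. Of 26 monocyte and lymphocyte chemokines and receptors 0 passed, with a median of 0.50 (0.75 without S21L), and of 26 neutrophil chemokines and inflammatory cytokines 0 passed, with a median of 0.39. Ccl8, a monocyte-attracting chemokine, had the largest difference of these, 3.21 ± 0.83 (adjusted p = 0.0821). It read 2.63, 0.26 and -0.89 at day 2 and 3.63, 4.91 and 3.08 at day 5, so that the groups were separated but the day 2 arrays spread over a wide range. Cxcl1, a neutrophil chemokine, read -1.54, -2.21 and -2.32 and then 0.23, -0.50 and 0.15 (1.98 ± 0.50, adjusted p = 0.0772). Ccl2, the main monocyte chemokine, was 0.83 ± 0.24 higher (adjusted p = 0.101). Il34, a ligand of the macrophage growth factor receptor, was 1.11 ± 0.27 higher (adjusted p = 0.0694), and C3ar1, the receptor of the complement fragment C3a, 1.01 ± 0.27 (adjusted p = 0.0893).

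Among the matrix lists that of matrix proteases and inhibitors gave the most calls. Of its 33 genes 5 rose, against 0.616% over all genes, and 0 fell. The median was 0.37, or 0.22 without S04L. In 10 of the 33 (30.3%, against 12% over all genes) the day 5 arrays lay above all day 2 arrays. Mmp2, gelatinase A, had day 2 arrays that nearly coincided, at -1.86, -1.85 and -1.89, and day 5 arrays at -0.65, -0.15 and -0.34. It was 2.81-fold higher (1.49 ± 0.19, adjusted p = 0.0045) and passed with the image folder as a block and without each array. Mmp14, the membrane protease that activates Mmp2, rose by 1.20 ± 0.26 (adjusted p = 0.0456). Timp2, an inhibitor that also takes part in that activation, read -0.47, -0.21 and -0.58 and then 0.79, 1.32 and 0.92 (1.43 ± 0.30, adjusted p = 0.0382). Mmp11, stromelysin 3, rose by 1.23 ± 0.23 (adjusted p = 0.0233), and Plat, tissue plasminogen activator, by 1.24 ± 0.26 (adjusted p = 0.0413). Timp1, by contrast, read 0.08, 0.01 and -0.51 and then 0.15, -0.41 and -1.84, with overlapping groups (-0.56 ± 0.39, adjusted p = 0.496) and a sign that turned without S21L. Mmp7, matrilysin, was 1.03 ± 0.40 higher and did not pass (adjusted p = 0.213).

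Of 22 collagens 1 rose, Col11a1, a fibrillar collagen of cartilage and fibrotic stroma, against 0.616% over all genes. The list's median was 0.42. Col11a1 read -0.18, -0.33 and -1.06 and then 0.88, 1.65 and 1.88 (1.99 ± 0.38, adjusted p = 0.0274). The main fibrillar collagens of scar did not pass. Col1a1 read 0.46, 0.26 and 0.26 and then 1.13, 1.56 and 0.24 (0.65 ± 0.57, adjusted p = 0.614), with S21L at the level of day 2. Col3a1 was likewise at 0.37 ± 0.47 (adjusted p = 0.752). The collagen median was 0.72 without S21L and 0.17 without S19L. Col6a4, a collagen VI chain outside the list, rose by 1.53 ± 0.21 (adjusted p = 0.00806), but its 2 probes gave -0.17 and 3.23.

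None of 47 matrix glycoproteins and proteoglycans passed, although 21 (44.7%, against 12%) had all day 5 arrays above all day 2 arrays and the median was 0.57. Fn1, fibronectin, was 0.47 ± 0.24 higher (adjusted p = 0.344), and Thbs3, thrombospondin 3 and the member of lowest p, was 1.12 ± 0.27 higher (adjusted p = 0.0605). Of 30 fibroblast and myofibroblast genes 0 passed, with a median of 0.35. Acta2, the smooth muscle actin that marks myofibroblasts, read 0.72, 0.91 and 0.67 at day 2 and 0.10, 0.82 and 0.24 at day 5 (-0.38 ± 0.24, adjusted p = 0.453). The Acta2 arrays overlapped at both days and lay above the sham values of -1.31 to -1.16. Stromal genes outside the lists did rise. Lrrc15, a surface protein of activated fibroblasts, rose by 1.85 ± 0.30 (adjusted p = 0.0157), with probes at 0.82 and 2.88, and Lrrc17, a secreted leucine-rich repeat protein, by 1.51 ± 0.25 (adjusted p = 0.0157).

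Growth factor genes both rose and fell. Of 38 TGF-beta and BMP genes 2 rose and 1 fell, with a median of 0.23. Over all genes 0.616% rose and 0.288% fell. Ltbp2, a matrix protein of the latent TGF-beta binding family, read -2.81, -2.87 and -3.19 and then -1.93, -1.41 and -2.15 (1.13 ± 0.22, adjusted p = 0.0316). Nbl1, a secreted BMP antagonist, read -0.01, -0.11 and -0.10 and then 1.01, 1.02 and 1.18 (1.14 ± 0.25, adjusted p = 0.0466). Bmp7, a BMP ligand of the tubule that opposes TGF-beta in the kidney, read 2.47, 2.61 and 2.50 and then 1.84, 1.99 and 2.07, a fall by 0.56 ± 0.11 (adjusted p = 0.0316), and its 11 probes gave differences from -0.59 to -0.51. The arrays of both days were separated in these 3 genes, as in every gene that passed. Dkk3, a secreted Dickkopf family member made by stressed tubules, was the 1 of 39 Wnt, Notch and mesenchymal transition regulators that rose, from 1.39, 1.22 and 1.58 to 2.73, 2.53 and 2.43 (1.17 ± 0.21, adjusted p = 0.0233). Pdgfa, a ligand of the platelet-derived growth factor receptors on fibroblasts, was the 1 of 43 growth factors of repair that rose (0.81 ± 0.17, adjusted p = 0.0365). Notum, an enzyme that inactivates Wnt ligands, fell by 1.02 ± 0.20 (adjusted p = 0.0318), and Fgfr3, a fibroblast growth factor receptor, fell by 0.72 ± 0.14 (adjusted p = 0.0318).

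Of the renin-angiotensin list 1 of 16 members rose and 1 fell (median -0.06), against 0.616% and 0.288% over all genes. Agtr2, the type 2 receptor of angiotensin II, is abundant in the fetal kidney and scarce in the adult one. It read -1.50, -1.63 and -3.67 at day 2 and 0.99, 1.33 and 0.62 at day 5, a 9.47-fold rise (3.24 ± 0.60, adjusted p = 0.0233). All day 5 arrays lay above all day 2 arrays, as the naming rule required, and S04L was well below the other day 2 arrays. Without S04L the difference was 2.54, or 5.82-fold, and the largest among the called genes was then that of Apol7c, 2.79. The sham arrays read -2.75 and -1.40 at day 2 and -1.70 and -1.91 at day 5. The obstructed mean was -2.82 ± 0.43 (SD, n = 3) at day 1 and 0.33 ± 0.22 (SD, n = 4) at day 9. Bdkrb2, the constitutive receptor of bradykinin, went the other way, from 1.37, 1.24 and 1.67 to 0.79, 0.53 and 0.63 (-0.77 ± 0.16, adjusted p = 0.0333). Its sham arrays read -0.41 to 0.05, so that the day 5 obstructed arrays lay between the day 2 and the sham levels. H19, an imprinted fetal RNA, rose from -1.88, -1.87 and -2.88 to -1.39, 0.17 and 0.31 (1.91 ± 0.40, adjusted p = 0.0397), with S31L close to the day 2 arrays.

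**Figure D2:**
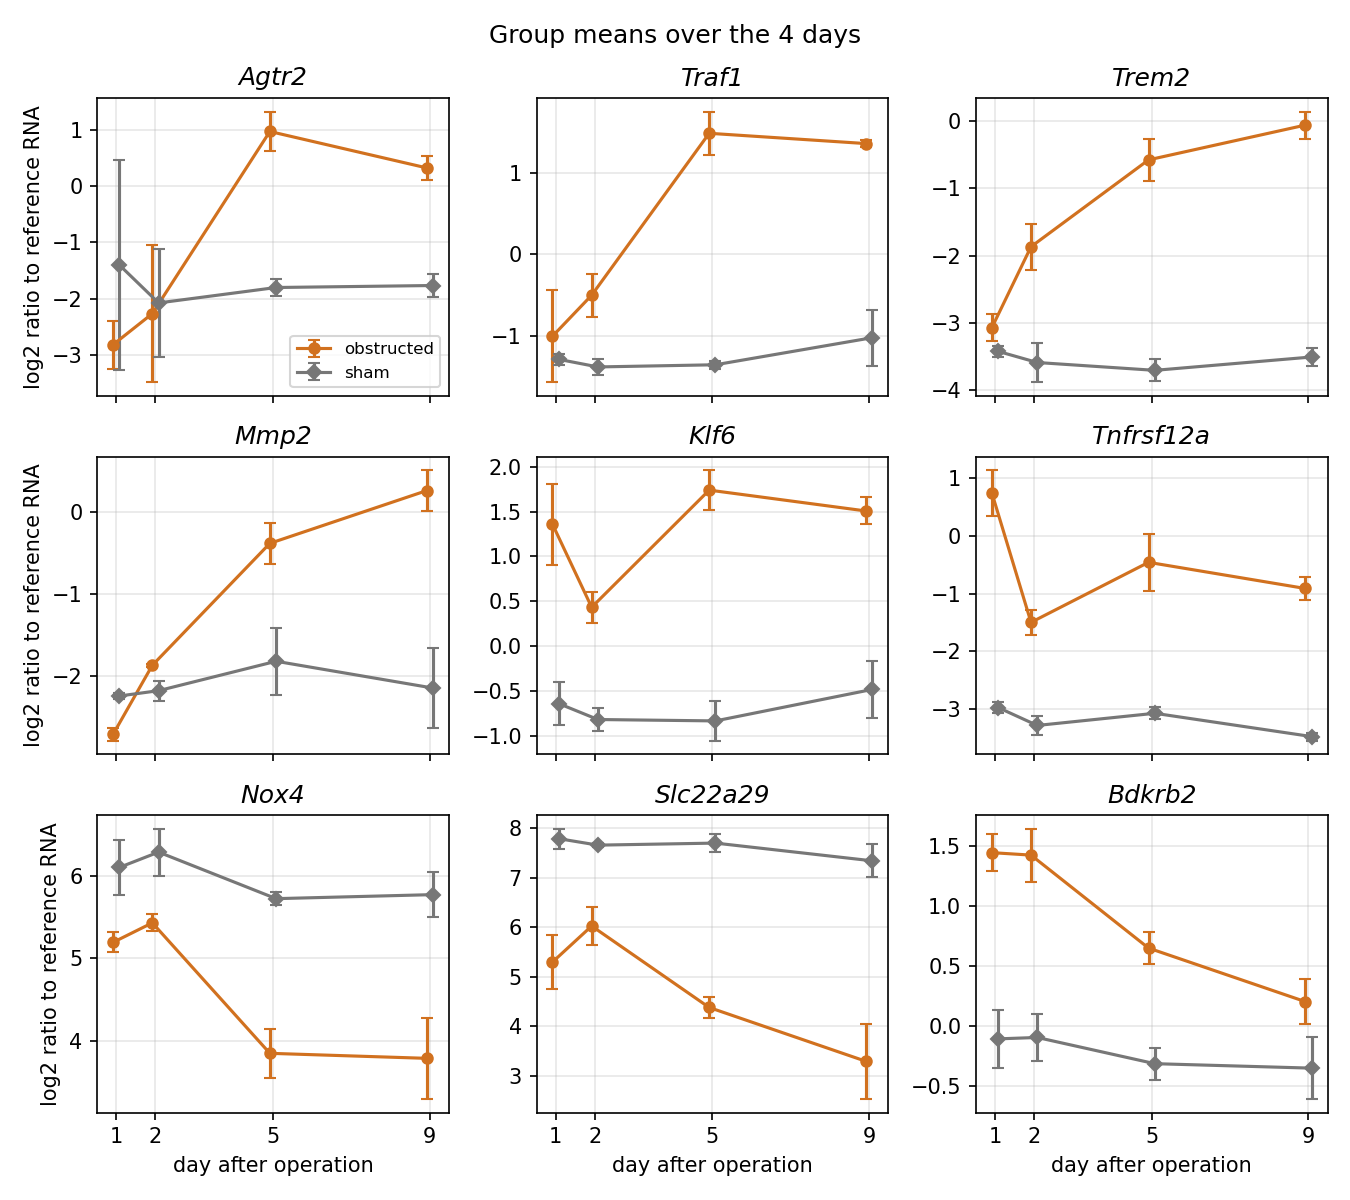
Group mean log2 ratio to reference RNA (y axis) at days 1, 2, 5 and 9 after the operation (x axis) for 9 genes in obstructed (circles) and sham (diamonds) kidneys, with bars of 1 SD over 3, 3, 3 and 4 obstructed and 2 sham replicates a day. Agtr2 goes from -2.27 at day 2 to 0.98 at day 5, Klf6 and Tnfrsf12a have their lowest obstructed mean at day 2, and Nox4, Slc22a29 and Bdkrb2 are lower at day 5 than at day 2.

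Over the other days of obstruction, which were not tested here, genes took different courses. Mmp2 had obstructed means of -2.71 ± 0.08 at day 1 and 0.27 ± 0.25 at day 9, and Trem2 of -3.07 ± 0.20 and -0.07 ± 0.20, so that day 2 and day 5 lie between those levels. Klf6 instead stood at 1.36 ± 0.45 at day 1, was lower on all day 2 arrays and was at 1.51 ± 0.15 at day 9. Tnfrsf12a, at 0.74 ± 0.39 on day 1, was higher then than on any day 5 array. These SDs are over 3 arrays at day 1 and 4 at day 9.

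**Figure D3:**
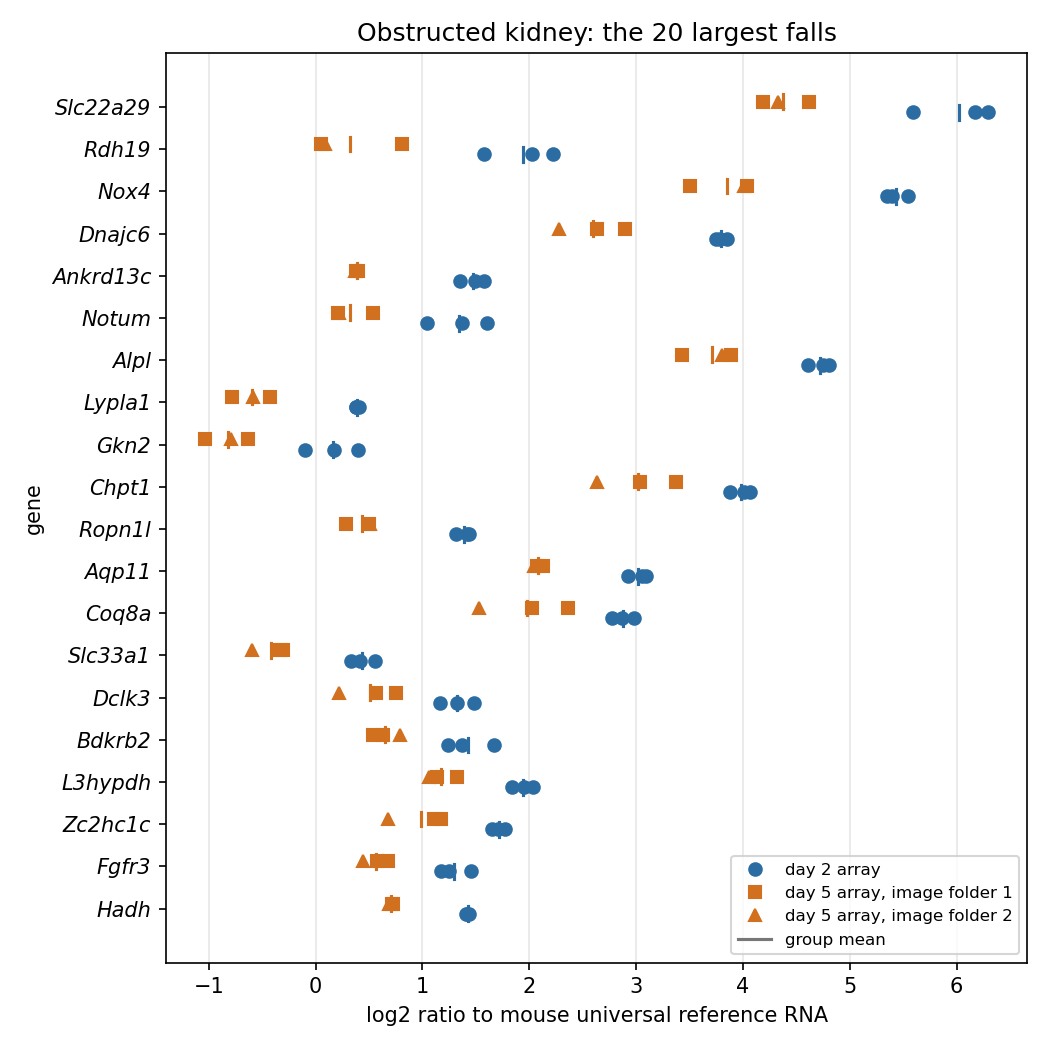
Log2 ratio to reference RNA (x axis) of the 20 largest falls (y axis), drawn as for the rises: circles for day 2, squares and a triangle for day 5, bars at the group means. Slc22a29, Rdh19 and Nox4 fell by 1.64, 1.62 and 1.58, and the 3 arrays of a day lie close together in most of these genes.

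The largest falls included genes of tubule cells. Slc22a29, an organic anion transporter of the mouse proximal tubule, read 5.60, 6.17 and 6.30 at day 2 and 4.33, 4.19 and 4.61 at day 5, 3.13-fold lower (-1.64 ± 0.36, adjusted p = 0.0456). It is also in the list of genes that differ between male and female kidneys, and the female-reading array S21L held the highest of the day 5 values. Nox4, the NADPH oxidase of the tubule, read 5.54, 5.40 and 5.35 and then 4.01, 4.04 and 3.51, 2.99-fold lower (-1.58 ± 0.24, adjusted p = 0.0126). Its sham arrays read 5.67 to 6.49. Rdh19, a retinol dehydrogenase family member, fell by 1.62 ± 0.28 (adjusted p = 0.0194), from 2.22, 2.02 and 1.58 to 0.09, 0.06 and 0.81. Alpl, the tissue-nonspecific alkaline phosphatase of the brush border, fell by 1.01 ± 0.17 (adjusted p = 0.0157), from 4.80, 4.61 and 4.75 to 3.81, 3.43 and 3.89. Aqp11, an intracellular water channel of the proximal tubule, read 2.92, 3.09 and 3.05 and then 2.05, 2.07 and 2.13 (-0.94 ± 0.17, adjusted p = 0.0223). In each of these 5 genes every day 5 array lay below every day 2 array, which the naming rule required.

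The other falls named by the rule were spread over lipid, vesicle and less well known genes. Chpt1, which makes phosphatidylcholine, fell by 0.97 ± 0.18 (adjusted p = 0.0271), with 4 probes from -2.19 to -0.63. Lypla1, which removes palmitate from proteins, fell by 0.99 ± 0.18 (adjusted p = 0.0233), and Slc33a1, the acetyl-CoA transporter of the endoplasmic reticulum, by 0.85 ± 0.17 (adjusted p = 0.0354). Dnajc6, auxilin, which uncoats clathrin vesicles, read 3.74, 3.78 and 3.85 and then 2.28, 2.63 and 2.90 (-1.19 ± 0.25, adjusted p = 0.0405). L3hypdh, a hydroxyproline dehydratase, fell by 0.76 ± 0.11 (adjusted p = 0.00837), the lowest adjusted p among these falls. The falls of Ankrd13c, Gkn2, Ropn1l, Dclk3 and Zc2hc1c ranged from 1.09 to 0.73 on the log2 scale.

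Mitochondrial genes read lower at day 5. All 46 oxidative phosphorylation genes had a difference below 0, from -0.69 to -0.15 with a median of -0.34, and in 35 of them (76.1%, against 13.6% over all genes) the day 5 arrays lay below all day 2 arrays. Of the 46, 2 fell by the test, against 0.288% over all genes. Ndufs4, a subunit of complex I, read 0.82, 1.13 and 1.02 and then 0.41, 0.32 and 0.51 (-0.57 ± 0.11, adjusted p = 0.0318). Ndufa8, another subunit of complex I, read 0.31, 0.32 and 0.44 and then -0.13, -0.17 and -0.13 (-0.50 ± 0.10, adjusted p = 0.0382). Cox5a, of complex IV, was at -0.36 ± 0.10 and did not pass (adjusted p = 0.0916). Coq8a, a kinase needed for coenzyme Q synthesis and outside the list, fell by 0.90 ± 0.19 (adjusted p = 0.0405).

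None of 22 tricarboxylic acid cycle genes passed, with a median of -0.30 and 14 (63.6%) entirely lower at day 5. Of 38 genes of fatty acid oxidation and the peroxisome 1 fell, the median was -0.30 and 20 (52.6%) were entirely lower. Over all genes 13.6% were entirely lower and 0.288% fell by the test. Hadh, the mitochondrial 3-hydroxyacyl-CoA dehydrogenase, read 1.41, 1.42 and 1.43 at day 2 and 0.69, 0.73 and 0.71 at day 5, 1.64-fold lower (-0.71 ± 0.13, adjusted p = 0.0233). The arrays of Hadh within a day nearly coincided. Over all alternatives run, the medians of these lists stayed below 0, at -0.39 to -0.28 for oxidative phosphorylation, -0.46 to -0.24 for the tricarboxylic acid cycle and -0.34 to -0.24 for fatty acid oxidation. Most members of each list were entirely lower at day 5. That all but fixes the sign of the median in fits that only leave arrays out or change the spread. For those fits the sign is no measure of stability. Pdha1, a subunit of pyruvate dehydrogenase, was at -0.49 ± 0.13 (adjusted p = 0.0917), and Hmgcs1, of cholesterol synthesis, at -0.86 ± 0.23 (adjusted p = 0.0873), with 0 of the 24 cholesterol and fatty acid synthesis genes passing.

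Of the genes in the nephron segment lists a single one passed. Of 59 proximal tubule genes 1 fell, Slc22a29, against 0.288% over all genes. Their median was -0.15 (-0.08 without S21L), and 14 (23.7%, against 13.6%) were entirely lower at day 5. Slc34a1, the phosphate transporter of the proximal tubule, read 6.25, 6.14 and 6.38 and then 6.24, 6.31 and 5.99, with overlapping groups (-0.08 ± 0.14, adjusted p = 0.831). Gatm, an enzyme of creatine synthesis, read 4.02, 4.48 and 4.22 and then 3.14, 3.52 and 3.17 (-0.96 ± 0.49, adjusted p = 0.339). The day 5 arrays of Gatm lay below those of day 2 and below the sham arrays at 5.43 to 6.02. None of the markers of the thick ascending limb (20 genes, median -0.01), the distal convoluted and connecting tubule (14, -0.02), principal cells (17, 0.05) or intercalated cells (20, -0.01) passed, nor did any of 19 podocyte (0.15) or 30 endothelial genes (0.06). The sham medians were -0.29 for the proximal tubule, -0.21 for the thick ascending limb, -0.45 for the distal convoluted and connecting tubule, -0.24 for principal and -0.33 for intercalated cells, further below 0 than the obstructed ones, and the difference between them was not tested. Umod, the uromodulin of the thick ascending limb, was at 0.15 ± 0.16 (adjusted p = 0.691), and Rhcg, an ammonia transporter of the collecting duct, at 0.38 ± 0.11 (adjusted p = 0.104). Upk1a, a urothelial plaque protein, was 0.76 ± 0.20 higher (adjusted p = 0.0821), and the 20 urothelium and ureter genes had a median of 0.39, or 0.22 without S04L.

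Cell cycle genes were lower at day 5 without a call. Of 37 DNA replication genes 0 passed, 2 had a difference above 0 and the median was -0.34, or -0.19 without S18L. Of 44 genes of mitosis and G2 phase 0 passed and 1 was above 0, with a median of -0.38, or -0.15 without S18L and -0.18 without S21L. Mki67, a proliferation marker, read -1.49, -2.21 and -2.12 at day 2 and -2.09, -2.17 and -3.19 at day 5 (-0.55 ± 0.60, adjusted p = 0.701). Its groups overlapped and S21L alone was lower. Top2a, the mitotic topoisomerase, was likewise at -0.51 ± 0.44 (adjusted p = 0.6), and Cks2, a partner of the cyclin-dependent kinases, at -0.73 ± 0.19 (adjusted p = 0.0821). The sham medians of the lists went the other way, 0.25 and 0.36, and with the image folder as a block the mitosis median of the obstructed kidney was 0.20.

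**Figure D4:**
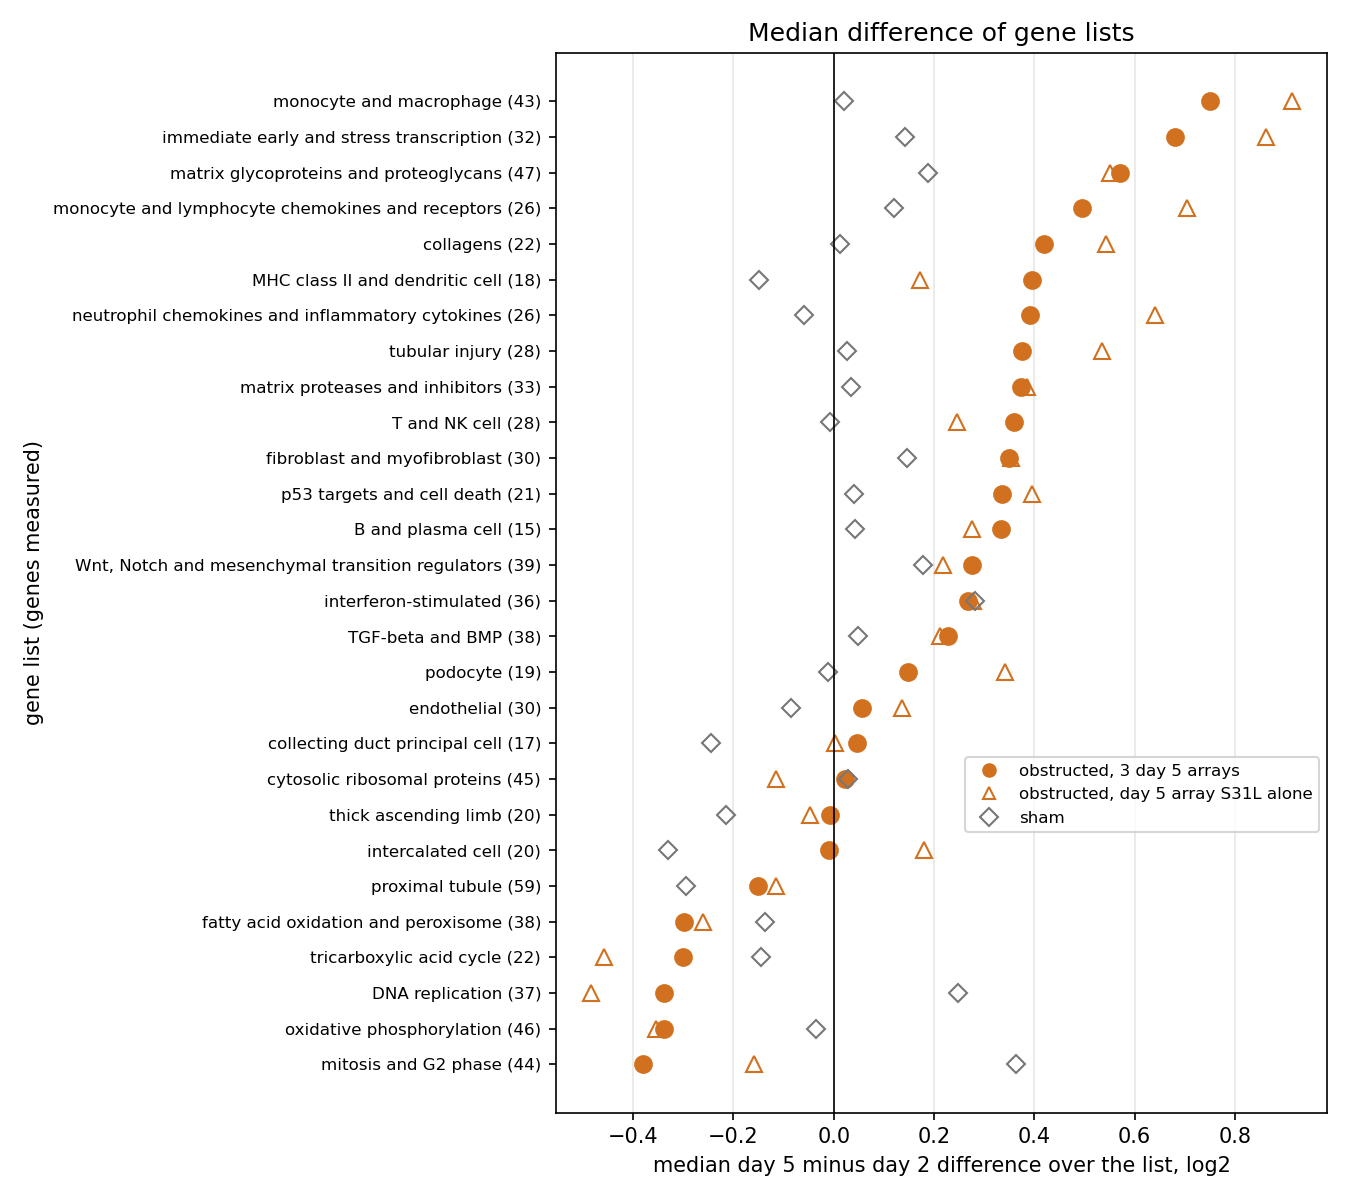
Median day 5 minus day 2 difference on the log2 scale (x axis) over the measured genes of a selection of the lists (y axis, number of genes in brackets), in the obstructed kidney with all 3 day 5 arrays (filled circles), with S31L as the sole day 5 array (open triangles) and in sham kidneys (diamonds). Of the lists drawn, the monocyte and macrophage list lies highest at 0.75 and the mitosis list lowest at -0.38. The sham value of the mitosis list is 0.36. Lists further out are not drawn: skeletal muscle and pancreas at 1.17, adipose tissue at 0.97 and the X and Y chromosome sex markers at -1.56.

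Of the 50 lists, 1231 genes had a tested value and 33 of them passed (2.68%, against 0.904% over all genes), 26 higher and 7 lower. The lists were chosen with results of these data known, so the share is a description. With S31L, the sole day 5 array in the image folder of day 2, the medians were 0.91 for macrophage, 0.86 for immediate early, 0.55 for matrix glycoprotein and -0.35 for oxidative phosphorylation genes. Other lists had smaller medians with S31L than with all day 5 arrays. MHC class II and dendritic cell genes were at 0.17 against 0.39. T and NK cell genes were at 0.25 against 0.36, and mitosis genes at -0.16 against -0.38. Among risen genes outside all lists were Apol7c, an apolipoprotein L family member (2.55 ± 0.51, adjusted p = 0.0318), Gbp11, a guanylate-binding protein (1.70 ± 0.33, adjusted p = 0.0308), Abcg3, an ABC transporter family member (1.81 ± 0.35, adjusted p = 0.0291), and Kcnh8, a potassium channel subunit (1.61 ± 0.29, adjusted p = 0.0316). Kcnh8 had no value on the sham arrays S08L and S32L.

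The sham kidneys served as the background measured in the same way, but the day 5 array S22L differed from the other sham arrays of these days. It read as female (Xist 1.57, Eif2s3y -5.05), against Xist at -5.52 on S32L and -4.73 and -4.43 at day 2. Its images are filed with those of S19L and S21L, and those of the other sham arrays of these days in the other folder. With the folder as a block 0 sham genes passed. The part of sex was not tested beyond the fit without S22L. Between day 2 and day 5, 0 of 17039 sham genes passed in limma (0%), with 527 (3.09%) at an unadjusted p under 0.05 and 2 arrays in each group. Traf1 read -1.45 and -1.31 in sham at day 2 and -1.32 and -1.39 at day 5 (0.03 ± 0.27), and Mmp2 differed by 0.36 ± 0.23. Nlrp10 was 0.84 ± 0.31 higher in sham at day 5, with day 2 arrays at -2.44 and -1.99 and day 5 arrays at -1.56 and -1.18. Of the 154 genes that passed in the obstructed kidney, 114 had a sham difference of the same sign, and 9 had an unadjusted p under 0.05 there. The share of all genes with the same sign in both was not counted.

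Whether the obstructed difference exceeded the sham difference was tested by the difference of the differences, for which 0 genes passed in limma (0%) and 1051 (6.17%) had an unadjusted p under 0.05. A change particular to obstruction is therefore not shown by these tests for any gene. The estimate for Traf1 was 1.96, with an unadjusted p of 5.22e-05, for Agtr2 2.97, for Fcrl1 2.57 and for Nox4 -1.02. With the sham day 2 array S39R left out, 9 sham genes passed, and 1 gene, B3gnt4, passed for the difference.

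**Figure D5:**
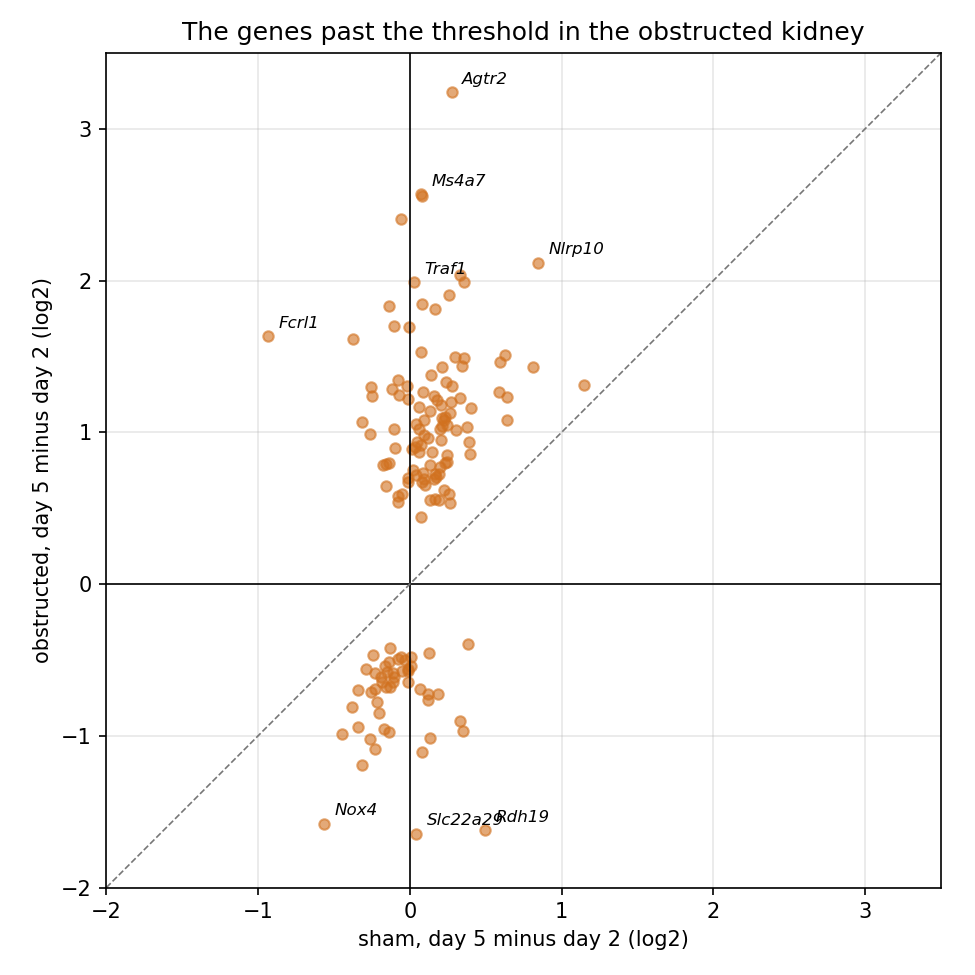
Day 5 minus day 2 difference (log2) in sham kidneys (x axis) against that in obstructed kidneys (y axis), with 1 point for each of the 154 genes that passed in the obstructed kidney and a dashed line of equal differences. The obstructed values were selected for size. Agtr2, Ms4a7 and Traf1 have sham differences of 0.27, 0.08 and 0.03, while Nlrp10 has 0.84 and Fcrl1 -0.93.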

How the data were processed

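The deposited table holds log10 ratios of kidney over reference RNA for 22 2-colour arrays. The authors gave no unit in the labels, so the log base was inferred from the values, and how the images were scanned, corrected for background and normalized is not given in the sources used here. The design had assumed log2 values, so ratios were multiplied by 3.32. An exact 0 was treated as no measured ratio. Each array had 35747 to 39871 measured spots of 45220, and the few replicates per group limit precision. Probes that name 1 gene (33653) with a value on at least 18 arrays and in every group were kept, array medians were subtracted and probes of a gene averaged. S03L and S03R, arrays of sham day 1, share a number and were averaged, leaving 21 replicates in 8 groups. The 3 contrasts (obstructed, sham and their difference) were fitted with limma 3.58.1 in R 4.3.3 on the group means, with eBayes and Benjamini-Hochberg adjustment over 17039 genes. There were 13 residual degrees of freedom, so that the spread of all groups was shared. Missing gene values, 1661 in all, were left out of the fit and not imputed.

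The arrays compared, the lists and the genes were chosen with earlier results of these data known. The text names the 20 largest rises and 20 largest falls that passed with groups that did not overlap, passing over clone and predicted names such as 9130024F11Rik, up to 4 passing members of a list or the member of lowest p, and a fixed set of injury, matrix and transport genes. Relb, Nfkbie, Tnfaip3, Ebi3, Mmp14, Zbtb7c, Itpr3, Ptpre, Slc37a1 and Fut8, and the muscle, adipose and Y-linked genes of arrays that stood apart, were added after their values were seen. List genes matched the array's annotation in 1319 of 1416 entries. On simulated data with the same design, limma recovered 54% of 100 genes changed by 1 log2 unit and 88% of 100 changed by 2, with 7 false calls. The simulated noise was independent between genes and arrays, with no effect of image folder, sex or other tissue. The false calls that such effects could give were therefore not measured. Alternatives covered exact zeros, scaling, filters on missing values, single probes, the image folder, the arrays that enter the fit and each array left out. Fits without arrays of high Xist ratio, with a term for it, and without S21L and S04L together were added after the data were seen.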

Additional observations from a re-analysis of the deposited data

Results flagged for a closer look

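Probes that name no gene stayed out of the comparisons above, and a smaller share of them passed in the obstructed kidney than of all probes. Of 7265 such probes tested, 32 passed in limma at day 5 against day 2 (0.44%), 26 higher and 6 lower. An unadjusted p under 0.05 was found for 826 of them (11.4%). Over all 36630 probes tested, with or without a gene name, 261 passed and 5498 had an unadjusted p under 0.05. Both shares of the unnamed probes lie below those over all probes. In sham kidneys 0 of them passed and 279 (3.84%) had an unadjusted p under 0.05. Groups of 3 arrays were too small to look for a single array that stands out in a gene.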

How the results depend on the processing

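The number of genes past the threshold in the obstructed kidney, 154, was 343 with quantile normalization, 15 with the image folder as a block, 0 with the 6 arrays alone, 80 with the 13 obstructed arrays alone and 0 within image folder 2, where S31L is the lone day 5 array and is assumed to vary like the other groups. Of alternatives added after seeing the data, it was 0 without arrays of high Xist ratio, 86 with a term for that ratio and 8 without S21L and S04L together. Leaving out 1 array gave 6 to 126. Of the 154 genes, 63 passed in 0 of these 6 fits, 53 in 1 and 4 in all 6. The count of list genes, 33, was in the same order 52, 3, 0, 21, 0, 0, 16 and 1, and 1 to 28 with 1 array left out. For sham the count of 0 ran from 0 to 9 and for the difference of differences from 0 to 1 with 1 array left out: Ppm1n without S08L, Anxa13 without S32L and B3gnt4 without S39R, named after their values were seen. Of 100 genes named, none of the 66 that passed changed sign under the 20 alternatives. Their separated groups all but fix the sign in every fit that only leaves arrays out or changes the spread. For those fits the count is therefore no measure of stability. Genes that did not pass turned sign. Havcr1 was at -0.18 without S31L, -0.23 without S04L and -0.17 without S19L, in a range up to 0.71 over single arrays left out. Timp1 was at 0.29 in image folder 2 alone and at 0.010 without S21L or without arrays of high Xist ratio, with a low of -0.98 without S31L. Mki67 was at 0.27 with the folder as a block. Umod was at -0.25 in image folder 2 alone and -0.034 without S19L, with a high of 0.35 without S31L. Slc34a1 was at 0.014 without S21L, without arrays of high Xist ratio and with the term for it, at 0.076 without S21L and S04L, and at its lowest, -0.15, without S19L. The cause was not tested. Exact zeros kept as ratios of 1, other filters, single probes and S03L and S03R as separate samples kept every count of calls within 1.5 times. No paired analysis was possible because the sample numbers differ between the days.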
